A study of Mus musculus with 24 samples.

Results

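Among 24 mouse hippocampal RNA samples, 5 held far more transthyretin (Ttr) RNA than the others, and these 5 were compared with the 16 samples in which Ttr was low. Ttr, the carrier of thyroid hormone and retinol that the choroid plexus secretes into the cerebrospinal fluid, chose the classes: a mouse was called choroid-rich above 100 CPM of Ttr and choroid-poor below 30 CPM, where CPM are counts scaled to a fixed total of 1000000 counted reads per mouse. The 3 mice between the cut-offs were left out of the comparison and are described on their own. Because the classes were selected on Ttr, its difference between them is a description and no test of it is read, and the calls for other genes in the same comparison are not independent evidence that the classes differ.

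Adult mice of 4 genotypes were studied, with 3 females and 3 males of each. Egr1f mice carry floxed Egr1 alleles and come from C57BL/6N stock, Egr1wt mice carry the unaltered alleles, and in NesCre+ mice a transgene drives Cre recombinase from the Nestin promoter, active in neural precursors, so that Egr1f NesCre+ mice lose Egr1 in that lineage (Egr1cKO). Each sample was the hippocampus of a single mouse, sequenced from polyA RNA in non-stranded libraries. The rich class held the female Egr1wt NesCre+ replicate 1, the male Egr1wt NesCre+ replicate 3, the male Egr1f NesCre+ replicate 2 and the male Egr1f NesCre- replicates 2 and 3, and no Egr1wt NesCre- mouse. All 4 genotypes and both sexes stand in the poor class.

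The choroid plexus is a folded epithelium over a stroma of fibroblasts, macrophages and leaky capillaries that hangs in the ventricles, and its lateral ventricle part lies along the fimbria of the hippocampus. Its epithelial cells produce cerebrospinal fluid by moving ions and water from blood to ventricle, carry vitamins and hormones across, seal the barrier with claudins and secrete growth factor-binding and lipid-modifying proteins. OTX2 and LMX1A are transcription factors of this lineage. The ependyma that lines the ventricles is a related tissue, with motile cilia driven by FOXJ1.

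Totals of counted reads ran from 18025168 to 34955004 over the 24 mice, and no 2 mice of a group differed by less than the sampling noise. Egr1, the deleted gene, ran from 4.98 to 9.68 CPM in the 6 Egr1cKO mice and from 48.3 to 148 CPM in the other 18, and Xist went against the labelled sex in 0 mice. The labels give the cell type as endocrine, but the pituitary hormones Gh and Prl reached at most 0.333 and 0.721 CPM in the poor mice and at most 0.130 and 0.199 CPM in the rich ones, while hippocampal genes such as Zbtb20 and Neurod6 ran from 222 to 775 CPM and from 123 to 231 CPM in the poor mice. Nothing in the labels says that mice were handled together, so p-values measure only the spread between these mice.

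Ttr was 1993 CPM in the female Egr1wt NesCre+ replicate 1, 1025 CPM in the male Egr1f NesCre+ replicate 2, 954 CPM in the male Egr1f NesCre- replicate 3, 759 CPM in the male Egr1f NesCre- replicate 2 and 292 CPM in the male Egr1wt NesCre+ replicate 3. The mean of the rich class was 1005 CPM ± 622 (SD, n = 5), and its members spanned a 6.82-fold range. In the 16 poor mice Ttr ran from 6.31 to 26.9 CPM with a median of 12.4. The 3 mice between the cut-offs held 46.3, 35.2 and 33.5 CPM, so the mice nearest the upper cut-off had 292 and 46.3 CPM and those nearest the lower one 33.5 and 26.9 CPM. The upper cut-off thus fell in a 6.31-fold gap, whereas the lower one ran through a continuous series. In bulk tissue, fewer cells of a type and less RNA per cell cannot be told apart.

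**Figure D1:**
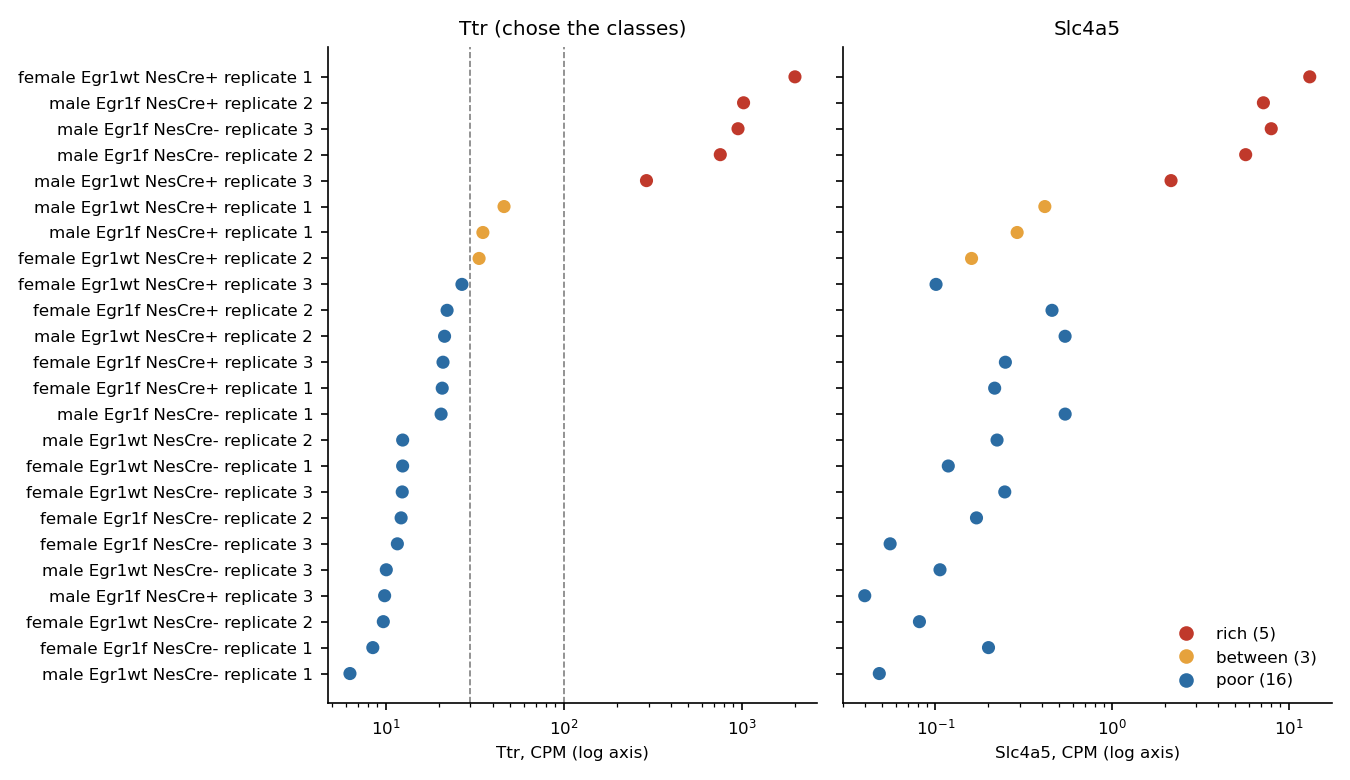
Ttr (left) and Slc4a5 (right) in each of the 24 mice, in CPM on log axes, with 1 point per mouse in order of Ttr and the cut-offs of 30 and 100 CPM as dashed lines. The 5 rich mice (red) stand at 292 CPM of Ttr or more and at 2.16 CPM or more of Slc4a5, and all 16 poor mice (blue) lie at or below 0.544 CPM of Slc4a5.

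The other identity markers of choroid epithelium followed the same division of the mice. Slc4a5, a sodium bicarbonate cotransporter of the apical membrane (GRCm38 chr6:83219828-83304945), was 13.2, 7.21, 7.98, 5.72 and 2.16 CPM in the rich mice in the order of their Ttr. In the poor mice it ran from 0.0398 to 0.544 CPM with a median of 0.186, so the classes did not overlap (log2FC 4.91, SE 0.36). Tmem72, a transmembrane protein known as a choroid marker (chr6:116679063-116716913), was 21.6, 13.9, 7.35, 7.26 and 1.12 CPM in the rich mice against at most 0.540 CPM in the poor ones (log2FC 5.24, SE 0.44). Clic6, an intracellular chloride channel (chr16:92485736-92541243), was 24.1, 14.1, 14.2, 10.5 and 3.46 CPM against 0.241 to 2.87 CPM (log2FC 3.03, SE 0.30). For these 3 genes every rich mouse stood above every poor mouse. Slc4a5 and Tmem72 passed the filter on low counts only through the rich mice, so they could be tested only because they were high there.

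Kl was the exception among the markers. Kl encodes klotho, a co-receptor of FGF23 that hippocampal neurons also express, and at chr5:150952607-150993817 it gave 75.4, 63.8, 40.3, 39.4 and 24.2 CPM in the rich mice. The poor mice ran from 17.5 to 33.8 CPM with a median of 23.9, and the least rich mouse lay inside that range (log2FC 0.88, SE 0.17). The call of Kl was lost without the female rich mouse, where edgeR gave an adjusted p of 0.217, and at an adjusted p of 0.0505 without the male Egr1f NesCre+ replicate 2.

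Over all 18639 genes tested with edgeR, with floxed allele and Nestin-Cre as covariates, 45 were called higher in the rich mice (0.241%), Ttr itself among them, and 4 lower (0.0215%). A call needed a fold change of at least 1.2 and a Benjamini-Hochberg adjusted p of at most 0.05. Of the 62 choroid genes listed besides Ttr, 58 were tested and 34 were called higher, and 0 were called lower. Of those 58, 8 passed the filter on low counts only because of their level in the rich mice, and 7 of the 8 were among the calls: Slc4a5, Tmem72, Kcne2, Steap1, Lmx1a, Krt18 and Prr32. The eighth was Krt8. Such genes entered the test only because they were high in the rich mice, so their calls support nothing. Every rich mouse stood above every poor mouse for 21 of all genes tested (0.113%), and 16 of the 34 choroid calls were of that kind. The median log2FC of the 58 tested choroid genes was 1.25 and that of all genes tested was 0.01. The rule that set the classes is tied to these genes by their cell type, and nothing is read from these shares.

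The count rested in part on the richest mouse. Without the female Egr1wt NesCre+ replicate 1, edgeR called 24 genes higher and 2 lower, with 22 of the choroid genes, and these were 22 of the 34. The 22 kept their call whichever rich mouse was left out. The other 12 lost it without the female mouse: Col8a2, Steap1, Cab39l and Cldn1 kept it in 4 of the 5 such fits, Kl in 3, Prr32, Oca2, Rdh5, Epn3 and Prlr in 2, and Lmx1a and Slc2a12 in 1. With males only, 4 rich mice remained and 3 genes were called, Aqp1, 1500015O10Rik and the selecting gene Ttr. In that fit the 32 choroid genes of the 34 that were tested had a median log2FC of 1.68, against 2.33 for the 34 in all rich and poor mice. All 34 kept a positive log2FC in every alternative fit that tested them.

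**Figure D2:**
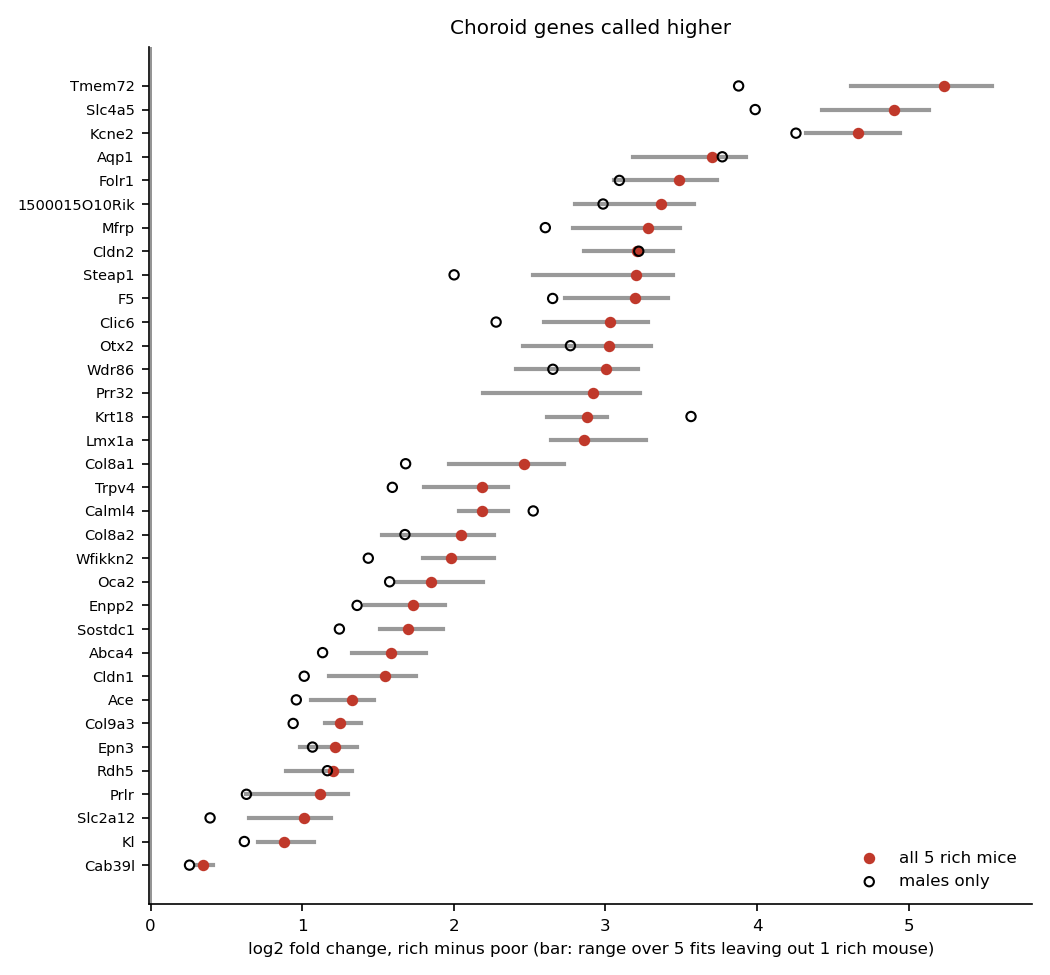
Log2 fold change (rich minus poor) of the 34 choroid genes called higher, from edgeR. Red points give the comparison of 5 rich with 16 poor mice, grey bars the range over the 5 fits that leave out 1 rich mouse each, and open circles the males alone. The values stay above 0 throughout, and most male values lie below the red points, with Krt18 and Calml4 the clearest exceptions.

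Genes that move ions and water were divided. Aqp1, the water channel of the apical membrane (chr6:55336432-55348555), was 14.2, 7.04, 4.27, 4.63 and 2.12 CPM in the rich mice and at most 1.11 CPM in the poor ones (log2FC 3.70, SE 0.37). Kcne2, a beta subunit of potassium channels (chr16:92292389-92298129), was 10.5, 7.38, 6.46, 4.73 and 1.73 CPM against 0.0286 to 0.453 CPM (log2FC 4.66, SE 0.33). Neither gene overlapped between the classes. Trpv4, an osmosensitive calcium channel, was also called higher but the male Egr1wt NesCre+ replicate 3, at 1.82 CPM, lay below the highest poor mouse at 3.16 CPM. Kcnj13, an inwardly rectifying potassium channel of the apical membrane, fell below the filter and was not tested, and ran from 0.173 to 2.36 CPM in the rich and from 0 to 0.355 CPM in the poor mice.

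The other 4 tested transport genes of this list did not pass the threshold. Slc12a2, the sodium, potassium and chloride cotransporter NKCC1, which hippocampal cells express as well, had means of 99.0 CPM ± 19.4 (SD, n = 5) in the rich and 88.7 CPM ± 9.44 (SD, n = 16) in the poor mice (log2FC 0.12, SE 0.09). The anion exchanger Slc4a2 had a log2FC of 0.44 (SE 0.10), and the carbonic anhydrases Car14 and Car12 had values of 0.51 (SE 0.14) and 0.01 (SE 0.11). Means in the poor mice were 5.42 CPM or more for these 4 genes and 1.23 CPM or less for the 3 called ones.

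Among solute and vitamin transporters, 4 of the 10 tested were called higher. Folr1, the folate receptor that carries folate into the cerebrospinal fluid (chr7:101858331-101870788), was 12.8, 5.61, 6.42, 7.21 and 1.99 CPM in the rich mice and 0 to 1.28 CPM in the poor ones (log2FC 3.49, SE 0.37). Steap1 had a log2FC of 3.20 (SE 0.50), the retinoid flippase Abca4 of 1.59 (SE 0.20) and the hexose transporter Slc2a12 of 1.01 (SE 0.21). The last of these was 2.94 CPM in the least rich mouse, below the poor median of 3.22 CPM, and its log2FC was 0.65 without the female mouse (adjusted p = 0.327, edgeR). Not called were the sulfate transporter Slc13a4 (log2FC 0.79, SE 0.39), the thyroid hormone carrier Slco1c1 (0.02, SE 0.11), the organic anion transporter Slc22a8 (0.13, SE 0.22), the copper importer Slc31a1 (0.29, SE 0.09), the monoamine transporter Slc29a4 (0.01, SE 0.12) and the lactate transporter Slc16a8 (1.25, SE 0.34).

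Of 9 secreted factors, 5 were called higher. Enpp2 encodes autotaxin, which makes lysophosphatidic acid (chr15:54838901-54952892), and gave 768, 447, 429, 379 and 173 CPM in the rich mice. The poor mice ran from 101 to 153 CPM with a median of 130 and did not overlap (log2FC 1.73, SE 0.17). Enpp2 is also a gene of oligodendrocytes, and its poor level was already over 100 CPM in every mouse.

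1500015O10Rik, a secreted peptide known as augurin, was 25.7, 10.96, 9.84, 11.9 and 3.46 CPM against 0.438 to 2.27 CPM (log2FC 3.37, SE 0.29). Coagulation factor F5 was 20.7, 8.30, 10.1, 7.06 and 3.805 CPM against 0.492 to 1.79 CPM (log2FC 3.20, SE 0.26). Neither overlapped between the classes. Wfikkn2, an inhibitor of myostatin and GDF11, and Sostdc1, an antagonist of BMP and WNT signals, were called higher with some overlap (log2FC 1.98, SE 0.34, and 1.70, SE 0.25). The growth factor Igf2 (log2FC 0.42, SE 0.40), its binding protein Igfbp2 (0.54, SE 0.15) and ceruloplasmin, Cp (-0.13, SE 0.17), did not pass.

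Of 5 receptors and surface enzymes, 2 were called higher. Ace, the angiotensin-converting enzyme, was 35.3, 18.8, 19.5, 16.2 and 12.6 CPM in the rich mice against 3.85 to 12.0 CPM (log2FC 1.33, SE 0.20). The prolactin receptor Prlr was 25.03, 9.78, 8.28, 7.81 and 5.32 CPM against 2.22 to 7.27 CPM (log2FC 1.12, SE 0.22). Its highest value belonged to the female mouse, and the call was lost without that mouse (adjusted p = 0.327, edgeR). Htr2c, the serotonin receptor found at high levels in choroid epithelium and also in hippocampal neurons, had means of 38.4 CPM ± 13.4 and 34.99 CPM ± 13.6 (SD, n = 5 and 16) and a log2FC of 0.02 (SE 0.22). The leptin receptor Lepr had a log2FC of 0.89 (SE 0.31) and the endocytic receptor Lrp2 of -0.34 (SE 0.20).

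The lineage factor Otx2 (chr14:48657677-48673819) was 8.93, 3.67, 3.04, 3.43 and 0.735 CPM in the rich mice, and the least rich mouse lay below the highest poor mouse at 1.12 CPM (log2FC 3.02, SE 0.40). Lmx1a was called higher at a lower level, with 0.953, 1.22, 1.06, 0.796 and 0.173 CPM against 0 to 0.434 CPM (log2FC 2.86, SE 0.61), and the call held in 1 of the 5 fits that left out a rich mouse. The homeobox gene Msx1 did not overlap between the classes, at 7.38 to 11.4 CPM and 2.83 to 7.17 CPM, but was not called (log2FC 0.92, SE 0.21). Msx2 had a log2FC of 0.06 (SE 0.49). Otx2os1, a long RNA on the opposite strand that overlaps Otx2 in part, was below the filter. In non-stranded libraries, reads from the stretch that the 2 genes share cannot be told apart.

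To show the sequence context of genes that move together, the 250 bases before each RefSeq transcription start (GRCm38.p6) were searched for TAATCC and its reverse complement GGATTA, the core that OTX2 and related homeodomains bind. Of the 34 called choroid genes, 27 had such a window, and 4 of these 27 held a match, against 7.21% of 27018 genes with windows. A gene with several starts had several windows and counted if any of them matched. By window, 4 of 35 matched, against 6.25% of 32841. The 4 matches follow 5′ to 3′ on the gene's strand with 12 bases on each side and the core in capitals, so that they can be compared.
Mfrp, chr9:44101624-44101653: ctcagctgagttGGATTAaggaccattccg
Abca4, chr3:122044390-122044419: gtaattagagggGGATTAtgcttgaagggg
Ace, chr11:105967909-105967938: ggctgggttttaTAATCCgcagggcggtcg
Otx2, chr14:48665303-48665332: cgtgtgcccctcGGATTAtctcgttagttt
The match lay 128, 52, 21 and 205 bases before the start in these genes. For Otx2 that start was an internal one, and the other windows of Otx2 and Ace held no match. The matching windows also took in exons, 3 for Mfrp and 2 for Otx2. The promoter of Kcne2, one of the genes with the widest gap between the classes, is given as an example of a window without a match, at chr16:92292139-92292388 on the plus strand, in which no letter is in capitals.
Kcne2: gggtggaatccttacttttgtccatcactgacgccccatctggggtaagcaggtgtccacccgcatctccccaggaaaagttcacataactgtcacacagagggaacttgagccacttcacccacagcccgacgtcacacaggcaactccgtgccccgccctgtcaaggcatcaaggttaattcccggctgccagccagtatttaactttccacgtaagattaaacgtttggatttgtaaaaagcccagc
A match is a description of letters, and no match says only that these letters are not in the window.

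Among barrier, keratin and matrix genes, 7 of 11 tested were called higher. Cldn2, the claudin that makes the barrier permeable to cations and water, was 9.93, 6.79, 3.08, 5.22 and 1.86 CPM against 0.0895 to 0.894 CPM (log2FC 3.21, SE 0.36). Krt18, a keratin of simple epithelia, was 2.71, 1.77, 1.48, 1.99 and 1.04 CPM against 0.0398 to 0.867 CPM (log2FC 2.88, SE 0.43). Its partner Krt8 did not overlap between the classes either, but was not called (log2FC 1.88, SE 0.44). The collagen Col9a3 was 31.9, 26.1, 26.2, 32.2 and 16.3 CPM against 7.81 to 13.6 CPM (log2FC 1.25, SE 0.13). The short-chain collagens Col8a1 and Col8a2 had log2FC of 2.47 (SE 0.36) and 2.05 (SE 0.32), the tight junction gene Cldn1 of 1.55 (SE 0.27) and the epithelial endocytic adaptor Epn3 of 1.22 (SE 0.24). Cldn3, Spint2 and Perp had positive values that did not pass (log2FC 1.15, 0.48 and 0.72).

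In the last group, 7 of 8 genes were called higher. Mfrp, a frizzled-related membrane protein, was 9.48, 5.10, 3.802, 2.94 and 1.43 CPM against 0.159 to 0.963 CPM (log2FC 3.28, SE 0.33). Calml4, a calmodulin-like protein, ran from 1.21 to 2.87 CPM against at most 1.11 CPM. Cab39l, a calcium-binding scaffold of kinases, differed least, with 27.1 to 37.6 CPM against 22.6 to 26.9 CPM (log2FC 0.35, SE 0.06), and yet did not overlap. Wdr86, Prr32, Oca2 and the retinol dehydrogenase Rdh5 were called with overlapping classes, at log2FC of 3.01, 2.92, 1.85 and 1.21. Vat1l, not called, reached 62.8 CPM in a poor mouse and 48.9 CPM in the female rich mouse (log2FC 0.42, SE 0.27).

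**Figure D3:**
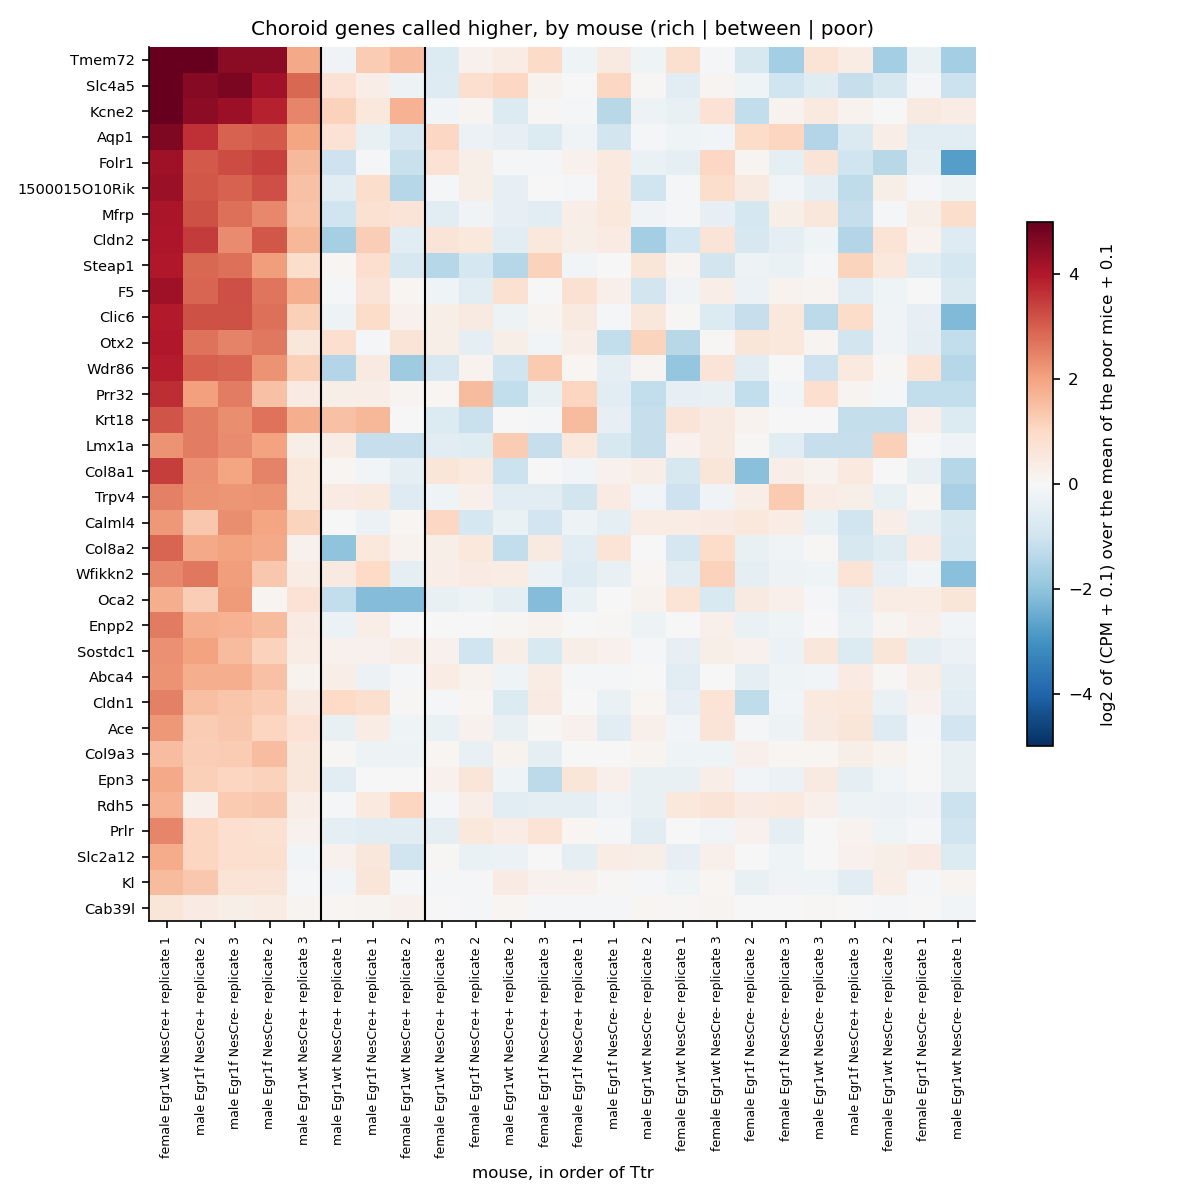
The 34 choroid genes called higher (rows, by log2 fold change) in the 24 mice (columns, by Ttr). Colour gives the log2 of CPM plus 0.1 over the mean of the poor mice plus 0.1 and saturates at 5 on either side; black lines separate the 5 rich, 3 intermediate and 16 poor mice. The rich mice stand apart as a block whose depth of red lessens toward the least rich mouse.

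The rich mice were ordered alike by most of these genes. The female Egr1wt NesCre+ replicate 1 had the highest value of 29 of the 34 genes, the male Egr1wt NesCre+ replicate 3 the lowest of 32, and 12 genes ranked all 5 mice in the order of Ttr. The 34 genes were called in these same mice, and some lost the call without the female mouse. Its share of highest values is thus built in to some degree. To put the mice on 1 scale, each gene's CPM was divided by the Ttr CPM of the same mouse. Per 1000 CPM of Ttr, Slc4a5 was 6.62, 7.03, 8.36, 7.54 and 7.40 CPM in the order of Ttr, a 1.26-fold range across mice whose Ttr spanned 6.82-fold. Clic6 ran from 11.8 to 14.8 CPM per 1000 CPM of Ttr, Wdr86 from 3.21 to 4.07 CPM and Kcne2 from 5.26 to 7.19 CPM. These values are a description, since Ttr chose the mice.

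Other genes ranged more widely on this scale. Tmem72 gave 10.8, 13.5, 7.70, 9.57 and 3.85 CPM per 1000 CPM of Ttr, lowest in the least rich mouse. Wfikkn2 was highest in the male Egr1f NesCre+ replicate 2, at 6.29. Cab39l gave 18.8 in the richest and 92.8 in the least rich mouse, and Kl 37.8 and 82.7. Both genes had levels above 17 CPM in all poor mice, and such a base level raises this measure where Ttr is lower.

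**Figure D4:**
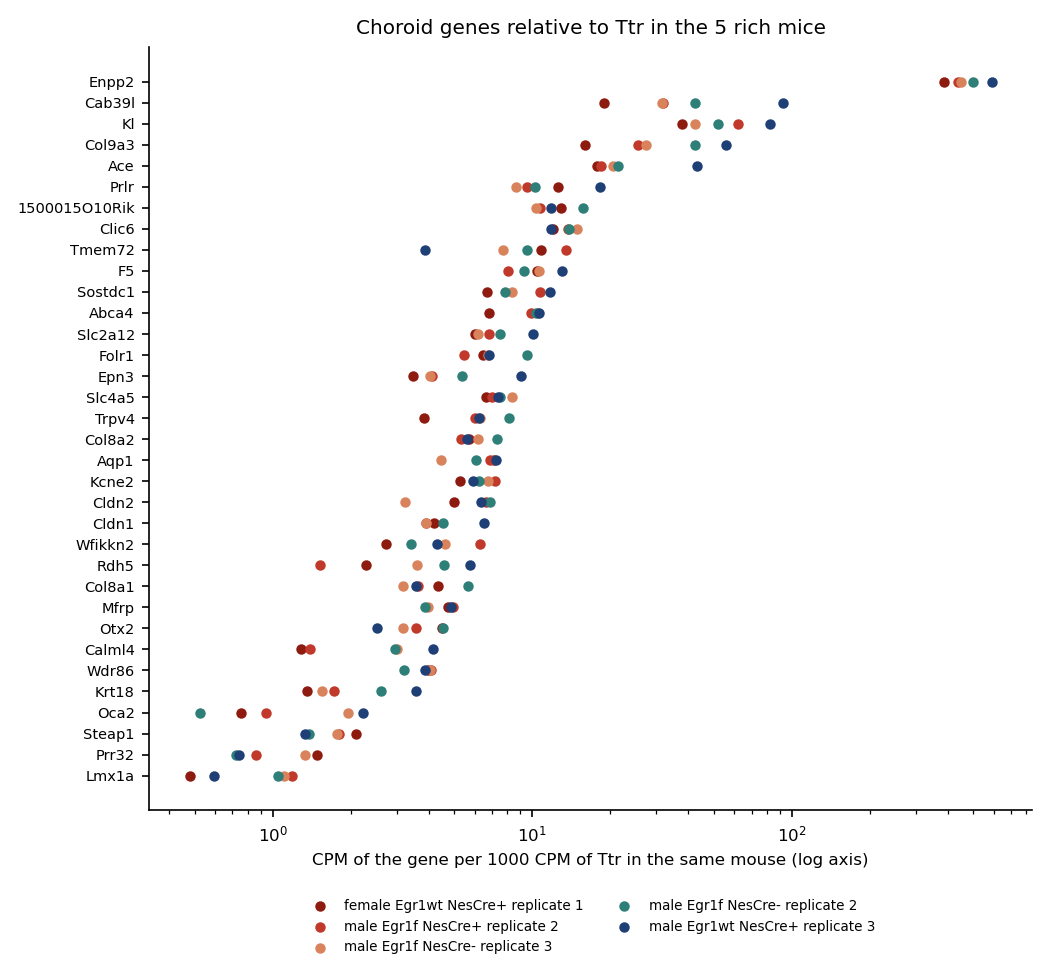
For each of the 34 choroid genes, its CPM per 1000 CPM of Ttr in the same mouse, on a log axis, with 1 point for each of the 5 rich mice. Genes are sorted by their highest value. Slc4a5 spans 1.26-fold, while Cab39l spans 4.92-fold with the least rich mouse (dark blue) highest.

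Per kilobase of exon, the CPM above the poor mean came to 835 for Ttr as the mean of the 5 rich mice. On that scale of levels per length, Enpp2 reached 6.45% of Ttr, 1500015O10Rik 1.49%, Col9a3 0.485%, Kcne2 0.401%, Sostdc1 0.384% and Clic6 0.361%. Slc4a5 came to 0.145% and Tmem72 to 0.0699%. The exon length is that of all annotated exons of a gene, so a gene with long rarely used exons is placed too low.

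The listed markers of other cells of the choroid plexus and its surroundings showed no call in either direction. Outside these lists, the ciliary gene Drc7 and the fibroblast protease gene Fap were called higher. Of 12 tested genes listed for motile cilia and ependymal cells, 0 were called. The summed level of that list ran from 45.8 to 76.5 CPM in the rich and from 38.4 to 65.5 CPM in the poor mice. Foxj1 was 5.06 to 10.7 CPM and 3.31 to 8.98 CPM in the 2 classes. The 10 fibroblast genes summed to 95.3 to 158 CPM in the rich and 62.8 to 187 CPM in the poor mice, led by Fn1 and Dcn. The 8 endothelial genes summed to 118 to 218 CPM and 98.9 to 209 CPM, and Plvap, a gene of the fenestrated capillaries of the plexus, ran from 6.02 to 8.66 CPM and from 4.36 to 8.08 CPM. Of the 7 border macrophage genes, 6 were tested, and the sums were 3.33 to 9.68 CPM and 3.66 to 14.1 CPM, with Ms4a7 listed at 0 in at least 1 mouse of each class. The 5 red blood cell genes summed to 50.0 to 97.7 CPM and 28.6 to 70.4 CPM. Classes overlapped for every one of these genes, and at an unadjusted p under 0.05 edgeR had 1051 genes higher and 1288 lower over all genes tested.

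Genes of neighbouring brain regions were also not called. The 10 thalamic and habenular genes summed to 139 to 173 CPM in the rich and 130 to 171 CPM in the poor mice, the 8 striatal genes to 147 to 186 CPM and 144 to 235 CPM, and the 11 genes of hippocampal principal neurons to 981 to 1698 CPM and 867 to 1821 CPM. The 8 activity-induced genes summed to 301 to 694 CPM and 179 to 584 CPM. In the female rich mouse most of the 11 hippocampal neuron genes were the lowest of the rich mice, though Wfs1 and Zbtb20 were not. Dsp, Fibcd1 and Homer3, at 26.1, 103 and 19.2 CPM, lay below every poor mouse. The dentate gyrus genes Prox1 and C1ql2, at 82.1 and 56.8 CPM, lay within the range of the poor mice. The activity-induced genes of this female mouse were divided. Npas4, Fos, Dusp1 and Nr4a1 were above every poor mouse, at 67.3, 54.1, 48.0 and 136 CPM. Arc, Fosb and Egr2, at 242, 23.2 and 12.7 CPM, and Junb lay within the range of the poor mice. The part of dissection or activity in the values of this mouse was not tested.

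**Figure D5:**
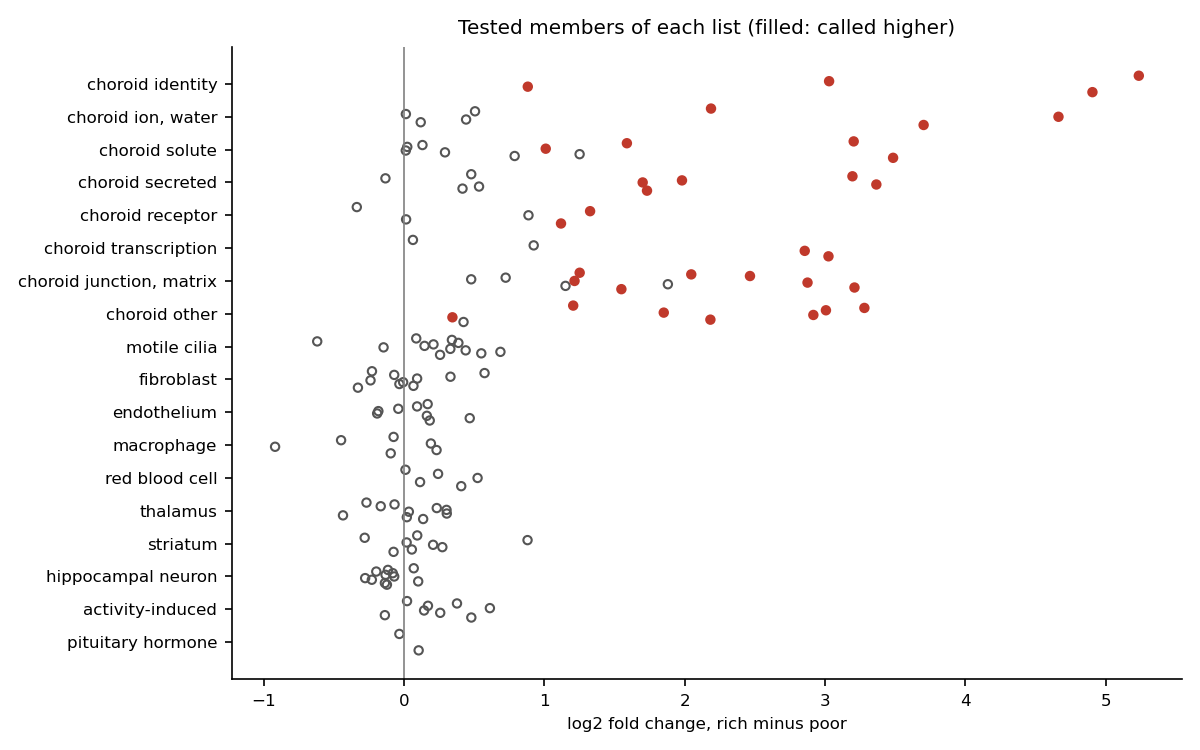
Log2 fold change (rich minus poor, edgeR) of every tested gene of the 8 choroid lists and 10 lists of other cells or regions, with Ttr left out. Filled red points are genes called higher, and they occur in the choroid lists alone, where 34 of 58 are filled, while the values of the other lists lie around 0.

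Outside the lists, 10 genes were called higher and 4 lower, none of them without overlap between the classes, so that no gene was named by the rule for genes outside the lists, and those given here were chosen after their values were seen. 2900040C04Rik, a long intergenic RNA (chr14:76251457-76252327), was 1.81, 1.39, 2.41, 0.796 and 0.562 CPM against 0 to 0.581 CPM (log2FC 3.62, SE 0.56), and was the 1 gene of the 14 called whichever rich mouse was left out. It too passed the filter on low counts only through the rich mice, so its call supports nothing. Fap, a surface protease known from activated fibroblasts, Rbm47, an RNA-binding protein of epithelia, Drc7, a part of the motile cilium, and Lbp, which binds lipopolysaccharide, had log2FC of 1.77, 1.43, 1.41 and 1.29. The other 5 were Gm44250, Sema3b, Il17rc, C1qtnf12 and Cers2, with log2FC from 0.26 for Cers2 to 1.18 for Gm44250. The 4 lower genes had small differences: Nos1, the neuronal nitric oxide synthase, -0.47 (SE 0.08), Zfp462 -0.41 (SE 0.09), Sorcs2 -0.30 (SE 0.06) and Bcr -0.27 (SE 0.06). The count of lower genes was 4 with all rich mice and 11, 0, 1, 2 and 2 when the male Egr1f NesCre+ replicate 2, the male Egr1f NesCre- replicates 3 and 2, the male Egr1wt NesCre+ replicate 3 and the female mouse were left out in turn.

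Several called genes overlap another gene on the opposite strand, and reads from the stretch that such a pair shares cannot be separated in non-stranded libraries. The partners of Folr1 (Anapc15), Slc2a12 (Tbpl1), Cab39l (Cdadc1) and Cers2 (Setdb1) had means of 3.86, 45.4, 55.8 and 56.8 CPM in the rich and 3.60, 45.1, 54.3 and 53.6 CPM in the poor mice, and none was called.

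The 3 mice between the cut-offs, all NesCre+, were set against the range of the poor mice. For 23 of the 34 genes, none of the 3 lay above the highest poor mouse, for 8 genes 1 did, for 3 genes 2 did and for 0 genes all 3 did. The share with none above was thus 67.6%, against 79.1% of all genes tested. Slc4a5 was 0.417, 0.291 and 0.160 CPM in the male Egr1wt NesCre+ replicate 1, the male Egr1f NesCre+ replicate 1 and the female Egr1wt NesCre+ replicate 2, all inside the poor range. Kcne2 was 0.649, 0.388 and 1.02 CPM, of which the first and last lay above the highest poor value of 0.453 CPM. Tmem72 was 0.185, 0.678 and 0.856 CPM, and the last 2 lay above the highest poor value of 0.540 CPM.

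Whether the rich mice fell among certain labels was tested with measures that the rule did not use. Of the 5 rich mice 4 were male, against 6 of 16 poor mice (two-sided Fisher exact test, p = 0.149, adjusted over 3 labels 0.446). Floxed mice made up 3 of 5 and 8 of 16 (p = 1.00 in the exact test), and NesCre+ mice 3 of 5 and 6 of 16 (exact p = 0.611, adjusted 0.916). The floxed and Egr1wt mice carry mouse numbers from separate ranges, so the allele and the series of mice cannot be told apart. Total counts were 22113579 ± 1926514 in the rich and 23399568 ± 4177454 in the poor mice (SD, n = 5 and 16), a ratio of geometric means of 0.955 (two-sided exact permutation test, p = 0.570). With so few rich mice, large imbalances could have been missed.

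Within the poor class, Ttr was compared with 12 genes across the 16 mice on log2(CPM + 0.1), as a description, since Ttr also placed the mice in this class. Pearson's r was above 0 for 11 of the 12, and for 41.2% of all genes tested. It was largest for Folr1 (r = 0.66, rho = 0.61) and Slc4a5 (r = 0.64, rho = 0.64). Without the 2 mice farthest from the median of Ttr, r was 0.42 for Folr1 and 0.77 for Slc4a5, and below 0 for Aqp1 and Otx2. Folr1 and Slc4a5 had median counts of 11 and 4 reads in the poor mice, so their relation rests on few reads. Plvap had the 1 negative value (r = -0.45), and Kl (r = 0.25) and Enpp2 (r = 0.20) are expressed by other hippocampal cells too.

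Among the poor mice Ttr had a median of 21.2 CPM in the 6 NesCre+ and 11.9 CPM in the 10 NesCre- mice, and several relations changed sign within these classes of mice. Among the 6 NesCre+ mice Ttr was 9.88 CPM in the male Egr1f NesCre+ replicate 3 and 20.8 CPM or more in the others. Each r in this group therefore rests largely on that mouse. In the NesCre- and the NesCre+ poor mice r was 0.71 and 0.95 for Folr1, 0.76 and 0.55 for Slc4a5 and 0.44 and 0.98 for the ciliary gene Foxj1. The value of r took opposite signs for Clic6 (0.56 and -0.68), Tmem72 (0.52 and -0.35), Igf2 (0.29 and -0.31), Kl (-0.19 and 0.65), Enpp2 (-0.05 and 0.86) and Plvap (0.38 and -0.62). Within the 8 floxed and the 8 Egr1wt poor mice r was 0.78 and 0.66 for Folr1, 0.72 and 0.55 for Slc4a5, -0.25 and 0.53 for Aqp1 and -0.07 and 0.48 for Otx2.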

How the data were processed

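RNA of 24 hippocampi was measured. The authors trimmed reads with Trim Galore, aligned them to mm10 (GRCm38) with STAR and deposited whole-number counts per gene without normalization for 36605 genes. The submitters' processing notes name Trim Galore 3.8.2, FastQC and STAR 2.7.9, while the paper's methods give other versions of Trim Galore and STAR. The annotation used for counting is not given in the sources used here. Symbols, positions and exon lengths came from GENCODE M21 on GRCm38, for 36493 genes, and promoter sequences from RefSeq. CPM are counts over a mouse's total times 1000000. Totals ran from 18025168 to 34955004. The classes were compared in R 4.3.3 with edgeR 4.0.16: filterByExpr with a minimum count of 10, TMM, the quasi-likelihood F test, floxed allele and Nestin-Cre as covariates, and Benjamini-Hochberg adjustment over 18639 genes. Standard errors are the log2FC over the square root of F. The script was tested on simulated data. Label, depth and correlation tests used exact or permutation tests (100000 draws) in scipy.

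All measured members of the 8 choroid lists were counted, and those at 1 CPM or more in the rich mean were described, except for 1 that is not reported here; other lists were given by counts, sums and their most abundant members; outside the lists, called genes whose classes did not overlap were to be named, up to 10 in each direction. Classes, members and lists were chosen with earlier results of these data known. Alternatives were DESeq2 1.42.0, its size factors, no filter, other covariates, a replicate block, males only, log2 Ttr over 24 mice, other cut-offs, no FC minimum and each rich mouse left out. A cut-off of 500 CPM and floxed mice only were chosen after seeing the data.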

Additional observations from a re-analysis of the deposited data

Results flagged for a closer look

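In the 5 rich mice, 49 called genes were searched for a mouse far from the other 4 by Dixon's gap over range. For 4 of them 1 mouse stood apart, and chance alone marks about 1 group in 20. Trpv4 was low in the male Egr1wt NesCre+ replicate 3, at 1.82 CPM against 5.998 to 7.62 CPM in the others (gap over range 0.720). The female Egr1wt NesCre+ replicate 1 stood high for Prlr, at 25.03 CPM against 5.32 to 9.78 CPM (0.774), for Fap, at 5.42 CPM against 0.865 to 1.85 CPM (0.783), and for Sema3b, at 8.07 CPM against 2.59 to 3.88 CPM (0.766).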

How the results depend on the processing

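The main comparison called 45 genes higher, 4 lower and 34 choroid genes. DESeq2, with or without its handling of outlying counts, called 14 genes lower. Without a filter on low counts 109 were higher and 112 lower, and without covariates 0 were lower. With males only the counts were 3 higher, 0 lower and 2 choroid genes. With floxed mice only, and with rich mice above 500 CPM, 0 and 2 genes were lower. Leaving out 1 rich mouse gave 24 to 59 higher, 0 to 11 lower and 22 to 37 choroid genes. The cause of these changes was not tested. With males only, the log2FC of Slc4a5, Tmem72, Clic6 and Kl was 3.99, 3.88, 2.28 and 0.62 and none passed in edgeR (adjusted p of 0.0696, 0.0838, 0.253 and 0.556). With a replicate block, 47 genes were higher, 3 lower and 33 choroid genes, but nothing in the labels says that the numbers pair the mice. Deviations from group means correlated at -0.27 to 0.36 between same-numbered mice of different groups (84 pairs, median -0.009). Between mice with other numbers they correlated at -0.42 to 0.47 (168 pairs, median 0.005). Of 24 mice, 9 correlated best with their own number. Such correlations cannot show whether mice were paired. Of the 12 genes set against Ttr in the poor mice, 2 passed an adjusted permutation threshold by r at a pseudocount of 0.1 and 0 at 1; nothing is read from that test, since Ttr placed the mice. Under these alternatives no result turned its direction, while some correlations with Ttr changed sign within subsets of the poor mice, as given above. Genes near 1 CPM rest on few reads per mouse, which limits their precision.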

Other observations

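Among the 19 mice that were not rich, Ttr ran from 6.31 to 20.5 CPM in the 10 NesCre- mice, with a median of 11.9, and from 9.88 to 46.3 CPM in the 9 NesCre+ mice, with a median of 22.2. Every NesCre+ mouse of these 19 except the male Egr1f NesCre+ replicate 3, at 9.88 CPM, stood above the highest NesCre- mouse. That division was not tested, since Ttr decided which mice were in it. Over all 24 mice, 12 NesCre+ and 12 NesCre-, the mean log2(CPM + 0.1) of Ttr was 5.89 and 4.53, a difference of 1.36 that a two-sided permutation test chosen after seeing the values did not separate from no difference (p = 0.201, adjusted over 5 genes 0.526). The differences of Slc4a5, Tmem72, Kcne2 and Enpp2 were 0.66, 1.05, 0.64 and 0.14 (permutation p from 0.244 to 0.662). These tests included the 5 rich mice, 3 NesCre+ and 2 NesCre-, whose high values widen the spread. They therefore do not address the 19 other mice.

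Zfp185 and Ung, in none of the lists and not called, did not overlap between the classes either. Zfp185, a zinc finger and LIM domain protein, ran from 3.55 to 5.47 CPM in the rich and from 1.89 to 3.36 CPM in the poor mice, and Ung, the uracil-DNA glycosylase, from 1.99 to 2.69 CPM and from 0.813 to 1.75 CPM. Tmprss11a, a serine protease below the filter on low counts, ran from 0.303 to 2.06 CPM and from 0 to 0.202 CPM. These 3 genes were chosen after their values were seen.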
